A study of Caenorhabditis elegans with 32 samples.

Results

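The genes described here are 46 genes of Caenorhabditis elegans listed for synaptic release and transmitters. They cover the machinery that releases synaptic vesicles, and the enzymes and transporters that make, load and clear neurotransmitters. The list also holds genes of G protein signalling and peptide processing and a receptor chaperone, and its members need not act only in the presynaptic terminal. They were chosen as a list by name, with earlier results of these data known. Of the 46, 44 were matched to a probe through the systematic name the array files give and entered the test of 25509 genes. The other 2, unc-17 and cha-1, the acetylcholine transporter of the vesicle and the enzyme that makes acetylcholine, were not matched and have no value here. Where a gene had more than 1 probe (26 of the 44 members), the probe with the brightest mean signal stood for it.

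Whole worms were collected on day 7 of adulthood after growth at 25 °C, on plates with the drug FUDR, which stops egg laying. The wild type was N2. The mutant csa-1(tm4539) has a mutation in the worm counterpart of CSA, and csb-1(ok2335) in that of CSB, both Cockayne syndrome genes. Worms with both alleles, csa-1(tm4539);csb-1(ok2335), are called double mutant. Each of these 4 strains was given water (vehicle) or 500 µM nicotinamide riboside (NR), a precursor of NAD+, from the last larval stage, which makes 8 groups with 4 arrays each, 32 arrays in all. The study's methods give fewer biological replicates per group than the arrays deposited, without saying which, so all 4 were used, and the p-values measure the spread between these arrays. The 4 arrays of a group shared 1 slide and the 8 slides held 1 group each, so slide and group cannot be told apart.

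At a synapse, vesicles travel along the axon on kinesin motors, collect at the active zone, and are primed by proteins that bring together the SNAREs, the coil-forming proteins whose pairing fuses vesicle and plasma membrane. Calcium entering through voltage-gated channels triggers fusion by way of synaptotagmin, G protein pathways tune how readily fusion happens, and the membrane is then recovered by endocytosis. In the worm the body muscles are driven by acetylcholine and relaxed by GABA, and small sets of neurons use glutamate, dopamine, serotonin, octopamine or tyramine. Many of these genes were first found in uncoordinated (unc) mutants, named for the way they move.

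Levels are given as Z-scores, the log2 signal of a probe minus the mean of its array, divided by the SD of that array, so that 0 is the average of the array's gene spots. Changes are given on the log2 scale (the difference in Z-score times 3.74, the mean SD of log2 signal). The SD ran from 3.17 to 4 between arrays. A change or fold given here is therefore not the plain difference in log2 signal, above all for genes far from the array mean. A gene passed the test with an adjusted p of at most 0.05 in limma over all 25509 genes, and was called when it also met the methods' other criteria, a Z-ratio (the change divided by the SD of all genes' changes) of 1.5 or more in either direction and, over the groups compared, a mean Z-score above 0. Neurons are a small share of a whole worm. Of the 44 members 29 lay above the average spot, as did 12087 of all 25509 genes tested. In all, 23 members were well above background on all 32 arrays, 35 on 29 or more, and 4 on under 16. These 4 were dgk-1, on 0 arrays, and tph-1, cat-1 and ace-2, on 13, 15 and 15. In such whole-worm RNA the cells that gave a signal are not known, and fewer neurons and less RNA per neuron cannot be told apart.

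The arrays differed in quality. The share of gene spots well above background ran from 46.9% to 78.4% and was lowest on N2 vehicle replicate 1, followed by csb-1 vehicle replicate 4 at 53.1% and N2 vehicle replicate 2 at 60.6%. The mean Z-score of the members was lowest on the same 3 arrays, at 0.06, 0.09 and 0.09, against 0.14 to 0.32 on the other 29. On N2 vehicle replicate 1, 11 members sat at the lowest value of the array, the floor to which the scanner software raises dim spots, and on csb-1 vehicle replicate 4 there were 6. 1 array read against its label at a csb-1 probe and at the csa-1 probe. On the array labelled csa-1 NR replicate 4 the csb-1 probe had a Z-score of -1.22, the floor of that array. The other 3 arrays of its group lay between -0.05 and 0. Its csa-1 probe had 0.21 against -0.33 to -0.26. On vehicle, however, the csa-1 probe overlapped between N2 (-0.44 to 0) and csa-1 (-0.62 to -0.01). Results that use the array in doubt are given with it and, where it matters, without it.

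**Figure D1:**
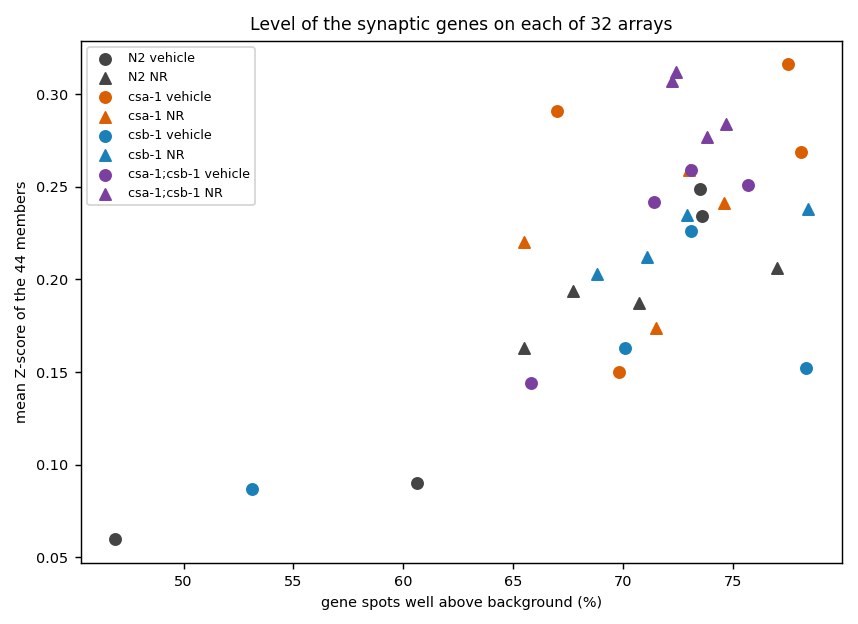
Mean Z-score of the 44 members on each of the 32 arrays (vertical axis) against the share of gene spots well above background in percent (horizontal axis), with circles for vehicle, triangles for NR and a colour per strain. The 3 arrays with the smallest shares, 46.9%, 53.1% and 60.6%, have the lowest mean Z-scores, and the 4 double mutant NR arrays, at 0.28 to 0.31, are among the highest.

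The clearest pattern among the synaptic genes followed the csa-1 mutation. With the 16 arrays of worms that carry it (csa-1 and the double mutant, on either treatment) set against the 16 that do not (N2 and csb-1), 17 members rose, 1 fell, and 26 did not pass the test. Passing the test were 14% of all genes tested, and 9.56% passed as higher. Of the 44 members, 36 had a positive estimate against 48.8% of all genes, and the median change was 0.32 where that of all genes was -0.01. Among the 29 members with a mean Z-score above 0, 16 passed, where 20.3% of all such genes did. The 5 members called were unc-25, unc-104, unc-10, snt-1 and syd-2, all higher, beside 3.2% of all genes called in either direction.

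**Figure D2:**
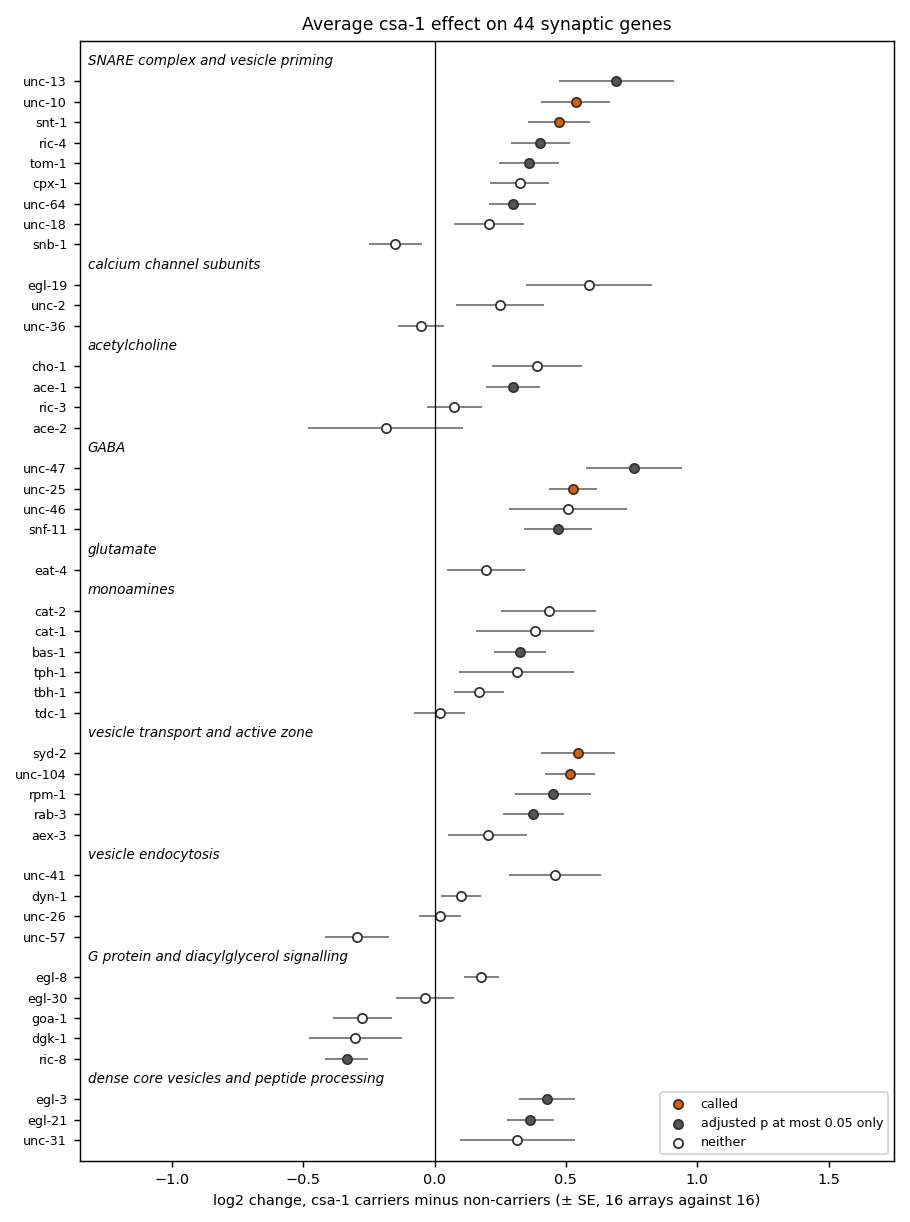
Average csa-1 effect on each of the 44 members, as the log2 change ± SE of the 16 arrays of csa-1 carriers against the 16 of non-carriers, grouped by role. Filled orange points were called, grey points passed the adjusted p of 0.05 only, and open points passed neither. The 5 called members lie between 0.47 and 0.55, and ric-8 is the 1 member that passed on the lower side.

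Genes of the GABA system had the largest median change of any role, 0.52, though unc-46 and unc-47 among them were dim. All 4 measured were higher in csa-1 carriers, with changes of 0.47 to 0.76, and 3 passed the test. The enzyme that makes GABA from glutamate, encoded by unc-25 (transcript Y37D8A.23b), had the smallest adjusted p of all members. On vehicle its Z-scores were 0.34, 0.19, 0.34 and 0.37 in N2, 0.40, 0.28, 0.48 and 0.44 in csa-1, 0.07, 0.26, 0.15 and 0.06 in csb-1, and 0.25, 0.42, 0.34 and 0.34 in the double mutant. On NR they were 0.24, 0.25, 0.28 and 0.25 in N2, 0.28, 0.41, 0.40 and 0.28 in csa-1, 0.25, 0.23, 0.20 and 0.22 in csb-1, and 0.38, 0.44, 0.42 and 0.40 in the double mutant. The NR groups of carriers and non-carriers met at 0.28, and on vehicle they overlapped. The average change was 0.53 ± 0.09 (SE, limma, adjusted p = 0.000775), a 1.44-fold difference, and the 3 probes of the gene gave 0.53 to 0.68.

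The vesicular GABA transporter unc-47 rose by 0.76 ± 0.18 (limma, adjusted p = 0.0086) but was dim, with a mean Z-score below 0 and only 26 arrays well above background, and was therefore not called. The GABA transporter of the plasma membrane, snf-11, rose by 0.47 ± 0.13 (limma, adjusted p = 0.0173) and missed the call by its Z-ratio of 1.498. The fourth gene, unc-46, whose product sorts the vesicular transporter, had 0.51 ± 0.22 and did not pass. It was well above background on only 22 arrays. Both unc-46 and unc-47 sat at the floor on N2 vehicle replicate 1 and csb-1 vehicle replicate 4, arrays of non-carriers. On replicate 1 of the double mutant on vehicle unc-46 was at the floor too.

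Vesicle transport and active zone genes behaved in the same way, with 4 of 5 higher and none lower. The kinesin motor that carries synaptic vesicle precursors down the axon is encoded by unc-104 (C52E12.2a). Its vehicle Z-scores were 0.18, 0.14, 0.38 and 0.32 in N2 and 0.49, 0.43, 0.54 and 0.44 in csa-1. Every csa-1 array was above every N2 array, where 2.58% of all genes did not overlap. In csb-1 the Z-scores of unc-104 were 0.19, 0.35, 0.27 and 0.20, and in the double mutant 0.32, 0.43, 0.44 and 0.42, with 1 value of each group inside the range of the other. On NR the range was 0.30 to 0.36 in N2, 0.34 to 0.52 in csa-1, 0.32 to 0.43 in csb-1 and 0.40 to 0.47 in the double mutant. The average change was 0.51 ± 0.09 (limma, adjusted p = 0.00127), and it was the 1 member that also passed in csa-1 against N2 on vehicle alone, with 0.83 ± 0.19 (limma, adjusted p = 0.0435).

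Liprin-alpha, an organiser of the active zone encoded by syd-2 (F59F5.6), rose by 0.55 ± 0.14 (limma, adjusted p = 0.0132). Its mean Z-scores were 0.27, 0.27, 0.21 and 0.27 in the 4 groups that carry csa-1 (csa-1 vehicle and NR, double mutant vehicle and NR) and 0.04, 0.12, 0.05 and 0.22 in N2 vehicle and NR and csb-1 vehicle and NR. On vehicle the groups overlapped widely, since 2 N2 arrays read -0.15 and -0.11 and the other 2 read 0.24 and 0.20. The ubiquitin ligase rpm-1, which limits presynaptic growth, rose by 0.45 ± 0.14 (limma, adjusted p = 0.0376), and rab-3, the small GTPase of the vesicle surface, by 0.38 ± 0.12 (limma, adjusted p = 0.0328). The exchange factor for that GTPase, aex-3, had 0.20 ± 0.15 and did not pass.

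Of the 9 genes for SNAREs and vesicle priming, 6 were higher, 0 were lower and 3 did not pass. Active zone scaffold RIM, the product of unc-10 (T10A3.1b), rose by 0.54 ± 0.13 (limma, adjusted p = 0.01). Its vehicle Z-scores were -0.33, 0.02, 0.17 and 0.06 in N2, 0.22, 0.06, 0.32 and 0.24 in csa-1, -0.13, 0.05, -0.17 and -0.23 in csb-1 and -0.02, 0.11, 0.14 and 0.04 in the double mutant, so that the groups of carriers and non-carriers overlapped. On NR the 4 csa-1 arrays, at 0.14 to 0.22, were all above the 4 of N2, at -0.03 to 0.03, while csb-1 (0.11 to 0.16) and the double mutant (0.08 to 0.18) overlapped. Between csa-1 and N2 on NR 11.6% of all genes did not overlap. All 4 probes of unc-10 that could be compared moved the same way, by 0.54 to 0.76.

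The calcium sensor synaptotagmin, snt-1 (F31E8.2b), rose by 0.47 ± 0.12 (limma, adjusted p = 0.0112), with a Z-ratio of 1.504, and lost the call without any 1 of 19 of the 32 arrays. Its Z-scores in the double mutant on NR were 0.15, 0.21, 0.20 and 0.16, above those of csb-1 on NR, at 0.07, 0.05, -0.02 and 0.07. Between those groups 24.3% of all genes did not overlap. In the double mutant on vehicle the Z-scores of snt-1 were 0.04, 0.17, 0.16 and 0.15 and lay mostly above, but overlapped, the -0.01, 0.15, -0.02 and -0.15 of csb-1. Syntaxin, unc-64, among the brighter members at a mean Z-score of 1.15, rose by 0.30 ± 0.09 (limma, adjusted p = 0.026). Its SNARE partner on the plasma membrane, ric-4, rose by 0.40 ± 0.11 (limma, adjusted p = 0.019), and tomosyn, tom-1, which holds back release, by 0.36 ± 0.11 (limma, adjusted p = 0.0359). The priming factor unc-13 had 0.69 ± 0.22 (limma, adjusted p = 0.0348) on a dim probe that was at the floor on 1 N2 vehicle array. Complexin (cpx-1), unc-18 and snb-1 had 0.33 ± 0.11, 0.21 ± 0.13 and -0.15 ± 0.10 and did not pass.

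**Figure D3:**
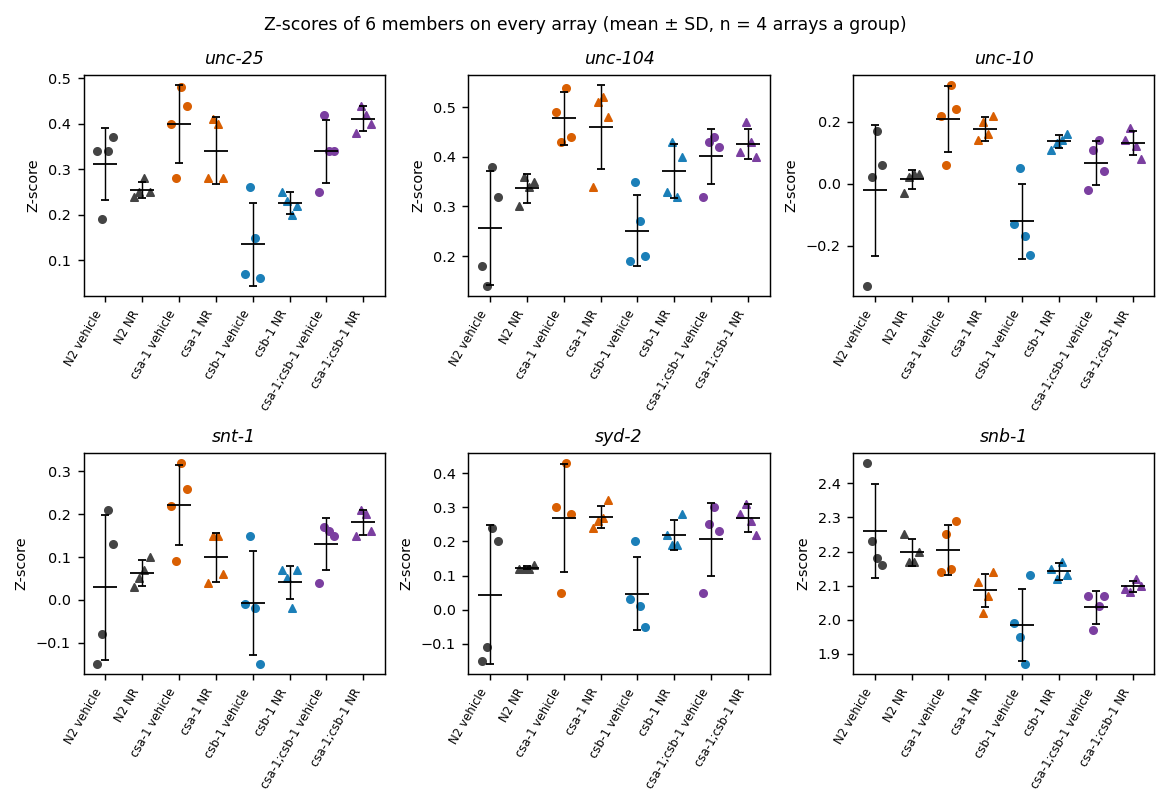
Z-scores of the 5 called members (unc-25, unc-104, unc-10, snt-1, syd-2) and of snb-1 on every array of the 8 groups, each point 1 array, with circles for vehicle, triangles for NR and black bars for the group mean ± SD (n = 4). The N2 vehicle arrays spread widely for unc-10, from -0.33 to 0.17, and for snb-1 the 4 N2 vehicle arrays lie at 2.16 to 2.46, above those of csb-1 vehicle at 1.87 to 2.13.

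Both peptide-processing enzymes rose as well. The proprotein convertase egl-3 and the carboxypeptidase egl-21, which cut and trim neuropeptides in dense core vesicles, rose by 0.43 ± 0.11 and 0.36 ± 0.09 (limma, adjusted p = 0.0114 and 0.01). The third gene of dense core vesicles, unc-31, whose product primes them for release, had 0.32 ± 0.22 and did not pass. On NR the double mutant held egl-21 at 1.17 to 1.18, above all 4 csb-1 arrays at 0.94 to 1.03. That difference of 0.72 ± 0.18 (limma, adjusted p = 0.0185) was the 1 call among members between those 2 groups, where 2.62% of all genes were called. By the adjusted p alone 2 members passed there, beside 4.07% of all genes. Between the same groups 13 members lay wholly higher and 2 wholly lower, where 24.3% of all genes did not overlap.

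The transmitter systems other than GABA, endocytosis and G protein signalling held fewer members that passed. Of 4 acetylcholine genes, ace-1, an acetylcholinesterase, rose by 0.30 ± 0.10 (limma, adjusted p = 0.0482). The choline transporter cho-1, the receptor chaperone ric-3 and the second acetylcholinesterase ace-2 had 0.39 ± 0.17, 0.08 ± 0.10 and -0.19 ± 0.30 and did not pass. Of 6 monoamine genes, the decarboxylase bas-1 of dopamine and serotonin synthesis rose by 0.33 ± 0.10 (limma, adjusted p = 0.03), and the vesicular monoamine transporter cat-1 (0.38 ± 0.23) and the tyrosine decarboxylase tdc-1 (0.02 ± 0.10) did not pass. The glutamate transporter of the vesicle, eat-4, had 0.20 ± 0.15.

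None of the 3 calcium channel genes passed (unc-2 with 0.25 ± 0.17, egl-19 with 0.59 ± 0.24 and the auxiliary subunit unc-36 with -0.05 ± 0.09). Nor did any of the 4 endocytosis genes, among which the phosphatase synaptojanin, unc-26, had 0.02 ± 0.08, endophilin, unc-57, had -0.29 ± 0.12 and stonin, unc-41, had 0.46 ± 0.18.

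Of 5 genes of G protein and diacylglycerol signalling 1 passed, as lower. This was ric-8, an exchange factor for G protein alpha subunits, which fell by 0.33 ± 0.08 (limma, adjusted p = 0.00954). Its Z-scores on vehicle were 0.59, 0.47, 0.56 and 0.61 in csa-1 and 0.57, 0.60, 0.61 and 0.61 in the double mutant, against 0.75, 0.63, 0.62 and 0.59 in N2 and 0.78, 0.69, 0.78 and 0.72 in csb-1. The double mutant lay wholly below csb-1, where 10.6% of all genes did not overlap, while csa-1 overlapped N2. The inhibitory subunit goa-1 had -0.28 ± 0.11 (limma, adjusted p = 0.0943), the stimulatory subunit egl-30 had -0.04 ± 0.11, and the phospholipase egl-8 had 0.18 ± 0.07, all without passing. The diacylglycerol kinase dgk-1 was not well above background on any array and its level is unknown.

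Separated by treatment, the count of members passing for the csa-1 effect depended on the fit. With all 32 arrays in the fit, on vehicle 17 members passed (15 higher, with ric-8 and unc-57 lower) beside 15.9% of all genes, with 9.88% higher, and 5 were called beside 3.05% of all genes: unc-104, unc-10, snf-11, rpm-1 and syd-2, with changes of 0.70 to 0.79. On NR 0 members passed beside 0.627% of all genes (9 at an unadjusted p of 0.05, beside 8.76%), the smallest adjusted p being that of unc-25, with 0.51 ± 0.13 (limma, adjusted p = 0.0639). The member median was 0.40 on vehicle and 0.24 on NR, against 0.00 for all genes in both, and 35 and 36 of the 44 members were higher. The difference between the treatments, tested directly in limma, passed for 0 members and 0% of all genes. At an unadjusted p of 0.05 it gave 3 members, rpm-1 at -0.68 ± 0.29, unc-64 at -0.38 ± 0.18 and unc-57 at 0.53 ± 0.24, beside 8.29% of all genes. With only the arrays of 1 treatment in the fit the order turned, with 0 members and 0.0549% of all genes passing on vehicle and 3 members, 1 of them called, and 2.68% on NR. If the array with the doubted label was left out, 1 member passed and was called on NR. With array quality weights 24 passed on vehicle and 16 on NR, beside 22.4% and 13.7% of all genes. The count on vehicle moved with single arrays, and the share of all genes moved with it. It fell to 7 without N2 vehicle replicate 1 or replicate 2 (5.89% and 5.74% of all genes), to 8 without replicate 3 of csa-1, replicate 4 of csb-1 or replicate 3 of the double mutant (6.59% to 7.66%), and to 11 without replicate 1 of csb-1 or replicate 2 or 4 of the double mutant (8.82% to 10.6%). It rose to 24 without N2 vehicle replicate 3 (29.9%), to 23 without replicate 4 (26.1%) and to 22 without csa-1 vehicle replicate 2 (22.2%). The count called fell to 3 without replicate 3 of csa-1.

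**Figure D4:**
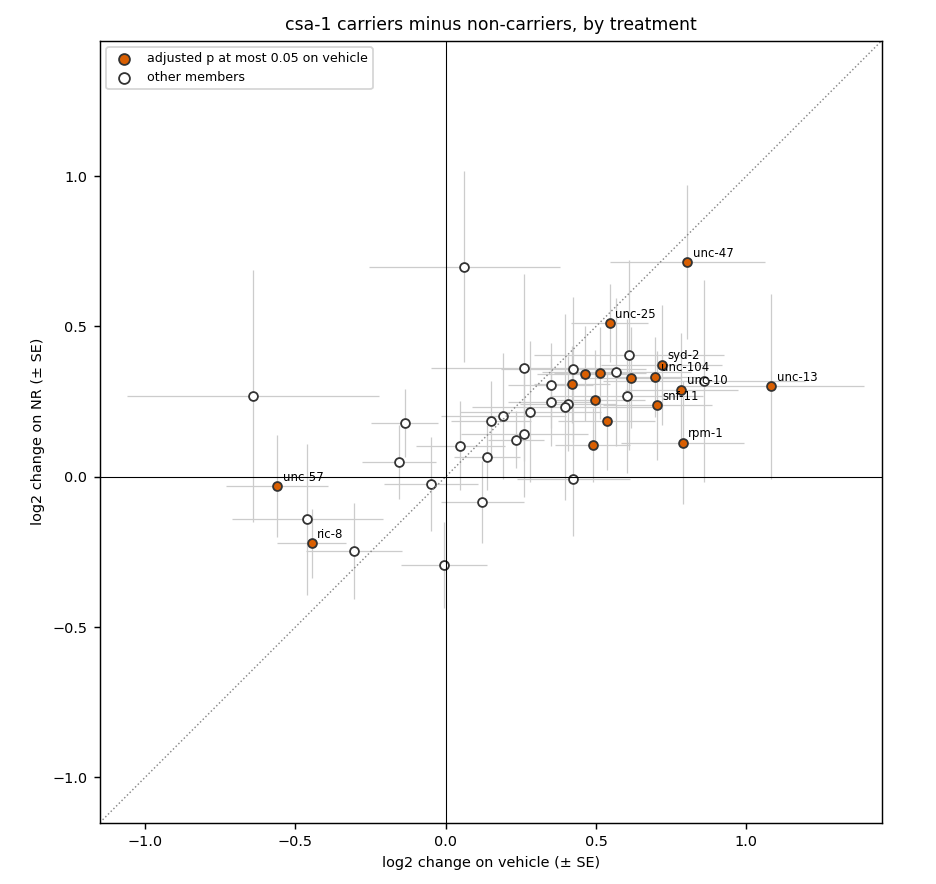
The csa-1 effect on each of the 44 members on vehicle (horizontal axis, 8 arrays of carriers against 8 of non-carriers) and on NR (vertical axis, 8 other arrays against 8), as log2 changes ± SE, with a dotted line where both are equal. Orange points passed the adjusted p of 0.05 on vehicle. Most points lie in the upper right, and rpm-1 and unc-13 lie farther right than up.

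The average csa-1 result depended on how the arrays were processed and on what counts as error. With the normexp background correction 0 members and 0.357% of all genes passed, and the member median was 0.11. With the slide as a random block 6 passed beside 4.36%. Since each slide held 1 group, that fit replaced the group means by strain effects and an NR effect common to all strains. Its slide part thus includes any difference in NR response between strains. Scaling on the 75th percentile of each array instead of the Z-score moved the median of all genes to -0.09, left 18 members passing and 17 of them higher, and called 0. The 75th percentile as a covariate left 11 passing beside 9% of all genes, and array quality weights gave 29, 26 of them higher, beside 34.9%. Leaving out 1 array at a time gave 12 to 24 members passing beside 9.29% to 24.4% of all genes. There were 24 without N2 vehicle replicate 3 or 4 (24.4% and 20.2% of all genes), 14 without N2 vehicle replicate 1 (11.2%) and 17 without the array whose label is in doubt (14.2%). The fewest, 12, passed without N2 vehicle replicate 2, without replicate 3 of csa-1 or of the double mutant on vehicle, or without replicate 2 of the double mutant on NR.

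Genes of the same kind outside the list, also chosen with earlier results known, leaned the same way. Beside them, 14% of all genes passed, 9.56% as higher, and 20.3% of genes with a mean Z-score above 0 passed. Of 53 other genes of the release machinery 15 passed, all higher, with a median of 0.18, among them the called elks-1, rbf-1 and snt-4, of the active zone, of vesicle docking and of the synaptotagmin family. Of 36 other genes of transmitter metabolism 9 rose and 1 fell, with a median of 0.19. The risen ones called were vglu-3, vglu-2, gln-3, glt-1, glt-3 and oct-1, and gln-5, a glutamine synthetase, was called as lower. Of 7 genes listed as general markers of neurons 0 passed in limma. At an unadjusted p of 0.05 there were 0 as well, beside 31.7% of all genes. How well these 7 genes track the content of neurons was not tested. Their median was 0.14, and their mean Z-score per array overlapped, at 0.235 to 0.401 on the 16 arrays of carriers and 0.191 to 0.427 on the others, although rgef-1 and unc-75 were well above background on only 2 and 9 arrays.

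Markers of other tissues moved with the csa-1 mutation too. Of 9 genes of body wall muscle 6 rose, 5 of them called (myo-3, unc-54, unc-15, tnt-2 and mup-2), with a median of 0.56. The mean Z-score of that list per array ran from 1.06 to 1.21 in N2, from 1.04 to 1.33 on 7 csa-1 arrays with 0.82 on the array whose label is in doubt, from 0.85 to 1.07 in csb-1 and from 1.22 to 1.27 in the double mutant, and all 9 genes were well above background on 30 or more arrays. Of 10 intestine markers 4 rose (ifb-2, an intermediate filament gene, called at 0.50 ± 0.09), and of 7 epidermis markers 1, the collagen col-19, called at 0.95 ± 0.14. Of 4 glia markers 3 rose, of 7 pharynx markers 3 rose, of 9 sperm markers 0 passed (3 at an unadjusted p of 0.05 in limma), and of 12 oocyte and germline markers 1 fell, with 11 estimates negative and a median of -0.22. The part of these shifts in tissue content, and of array quality, in the csa-1 result was not tested.

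In each mutant alone against N2 on vehicle, few synaptic genes reached a call. In csa-1 it was 0 of 44 beside 0.678% of all genes, in csb-1 1 beside 0.651% and in the double mutant 1 beside 0.686%. By the adjusted p alone it was 1 in each, beside 1.14%, 0.913% and 1.73% of all genes. For 18, 7 and 11 members the unadjusted p was 0.05 or less, beside 27.8%, 10.3% and 19.6% of all genes, and the member medians were 0.40, -0.01 and 0.24. Since these comparisons share the N2 vehicle arrays, they are not independent of each other. The count in csa-1 rested on which arrays were used, with 19 passing without N2 vehicle replicate 3, 13 without replicate 4, 7 without csa-1 vehicle replicate 2 and 0 without any 1 of the other 5. In the double mutant 8 passed without N2 vehicle replicate 3.

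**Figure D5:**
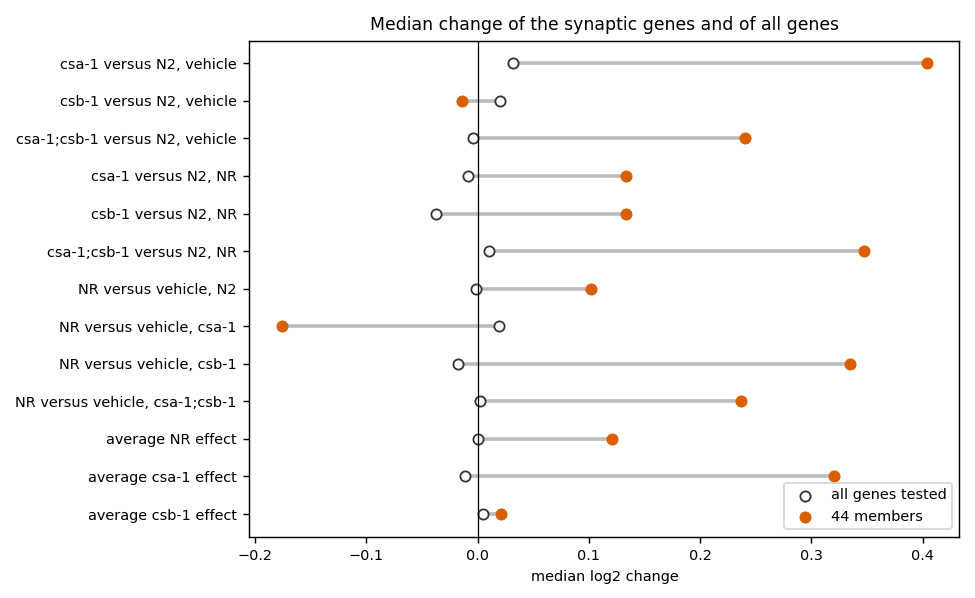
Median log2 change of the 44 members (orange) and of all 25509 genes tested (open) in 13 comparisons. The member median is farthest above that of all genes for csa-1 against N2 on vehicle, at 0.40 against 0.03, and lies below it for NR against vehicle in csa-1, at -0.18 against 0.02.

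The called gene was the same in csb-1 and in the double mutant. Synaptobrevin, the SNARE of the vesicle membrane encoded by snb-1 (T10H9.4), was among the brightest members, and its 1 probe was well above background on all arrays. On vehicle its Z-scores were 2.46, 2.23, 2.18 and 2.16 in N2, 1.99, 1.95, 1.87 and 2.13 in csb-1 and 2.07, 1.97, 2.04 and 2.07 in the double mutant. Every array of either group lay below every N2 array, where 2.26% (csb-1) and 4.56% (double mutant) of all genes did not overlap with N2. The csa-1 arrays, at 2.14, 2.25, 2.15 and 2.29, overlapped N2. The fall was 1.02 ± 0.20 in csb-1 (2.04-fold, limma, adjusted p = 0.00791, exact permutation p = 0.029, the smallest that 4 against 4 can give) and 0.83 ± 0.20 in the double mutant (1.78-fold, limma, adjusted p = 0.0303).

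On NR the difference was smaller. The Z-scores were 2.25, 2.17, 2.17 and 2.20 in N2, 2.15, 2.12, 2.17 and 2.13 in csb-1 and 2.09, 2.08, 2.12 and 2.10 in the double mutant. They were lowest on average in csa-1, at 2.11, 2.02, 2.07 and 2.14, all below the N2 arrays, where 11.6% of all genes did not overlap. The difference was -0.42 ± 0.20 (limma, adjusted p = 0.361, unadjusted p = 0.0455). No comparison with N2 on NR passed for snb-1. Within csb-1, NR gave 0.59 ± 0.20 over vehicle (limma, adjusted p = 0.0898), and the NR effect in csb-1 minus that in N2 was 0.81 ± 0.28 (limma, adjusted p = 0.506, unadjusted p = 0.00795). Averaged over treatments and over csa-1, the csb-1 carriers were lower by 0.46 ± 0.10 (limma, adjusted p = 0.00647), the 1 member called or passing in that comparison beside 1.94% of all genes called and 3.91% passing. N2 vehicle replicate 1 read highest of all 32 arrays for snb-1, and it also had the smallest SD of log2 signal, 3.173. Z-scores divide by that SD, so a small SD raises the Z-score of a bright gene. The folds of snb-1 and its lack of overlap with N2 hold for Z-scores and depend on this scaling. Without N2 vehicle replicate 1 snb-1 fell by 0.77 in csb-1 on vehicle (limma, adjusted p = 0.0293) and still was called, but had -0.58 (limma, adjusted p = 0.164) in the double mutant. Without csb-1 vehicle replicate 3 it had -0.89 (limma, adjusted p = 0.0581) in csb-1, normexp gave -0.21 (limma, adjusted p = 0.846), and with only the groups compared in the fit the adjusted p was 1. In the double mutant the call was lost without any 1 of the 8 arrays, by its p or its Z-ratio. The average over csb-1 carriers lost its call without N2 vehicle replicate 1, at -0.39 (limma, adjusted p = 0.00362), by its Z-ratio, and with the slide as a random block (limma, adjusted p = 0.0694).

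Other members differed on vehicle between csb-1 and N2 without passing. The calcium channel gene unc-2 had Z-scores of 0.01, 0.13, -0.05 and -0.07 in csb-1 and of -0.59, -0.49, -0.07 and -0.15 in N2. The csb-1 arrays were at or above the highest N2 array, and the difference was 1.24 ± 0.33 (limma, adjusted p = 0.0728). For unc-25 it was -0.66 ± 0.18 (limma, adjusted p = 0.0868). Between the double mutant and csb-1 on vehicle unc-25 was higher by 0.76 ± 0.18 (limma, adjusted p = 0.0264), the 1 of 44 members that passed, where 2.04% of all genes passed and 0.98% were called.

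On NR, 0 members were called in csa-1 (beside 0.361% of all genes), in csb-1 (2.92%) and in the double mutant (1.31%) against N2, and 4, 4 and 10 had an unadjusted p of 0.05 or less, beside 13.4%, 16.6% and 14% of all genes. By the adjusted p alone 1 member passed in csb-1, beside 5.25% of all genes, and 1 in the double mutant, beside 1.98%. In csb-1 the auxiliary calcium channel subunit unc-36 fell by 0.61 ± 0.17 (limma, adjusted p = 0.037), from 0.68, 0.65, 0.68 and 0.54 in N2 to 0.54, 0.47, 0.47 and 0.41. The groups met at 0.54. In the double mutant cat-1 rose by 1.78 ± 0.45 (limma, adjusted p = 0.0314), from -0.83, -1.24, -1.25 and -0.89 in N2 to -0.71, -0.60, -0.19 and -0.81. All 4 double mutant arrays were above the N2 ones, but only 1 of the 4 N2 arrays was well above background, so the size is uncertain. Between these 2 groups 25 of 44 members did not overlap, 23 higher and 2 lower, where 24.4% of all genes did not overlap. Among the 23 were unc-25 with 0.59 ± 0.18, egl-3 with 0.67 ± 0.22 and snf-11 with 0.62 ± 0.26, and none of these 3 passed the adjusted p.

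NR itself moved few of these genes. Against vehicle, 0 members were called in N2 (beside 0.87% of all genes), 0 in csa-1 (2.2%), 2 in csb-1 (1.5%) and 0 in the double mutant (2.28%). At an unadjusted p of 0.05 there were 2, 7, 9 and 8, beside 12.7%, 20.5%, 20.1% and 16.9% of all genes. By the adjusted p alone 0 passed in csa-1, beside 5.3% of all genes, the same 2 in csb-1, beside 4.66%, and 1 in the double mutant, beside 4.91%. Those called were snf-11 and unc-10, in csb-1. The Z-scores of snf-11 rose from -0.01, 0.15, -0.09 and -0.18 on vehicle to 0.22, 0.19, 0.29 and 0.24 on NR, without overlap, by 0.998 ± 0.256 (1.997-fold, limma, adjusted p = 0.0211, exact permutation p = 0.029). The call was lost without any 1 of csb-1 vehicle replicates 3 and 4 and csb-1 NR replicates 3 and 4, with adjusted p of 0.0535 to 0.112 in limma. In the same strain unc-10 rose by 0.97 ± 0.26 (limma, adjusted p = 0.0306), from -0.13, 0.05, -0.17 and -0.23 to 0.11, 0.13, 0.14 and 0.16, again without overlap. Its mean Z-score was 0.01, just past the level criterion, and its call was lost without any 1 of the 8 arrays but csb-1 vehicle replicate 2, with adjusted p of 0.0576 to 0.133 in limma. The tyrosine decarboxylase tdc-1 had 0.65 ± 0.20 (limma, adjusted p = 0.0529), from 0.03, 0.02, 0.05 and -0.09 to 0.17, 0.17, 0.13 and 0.22.

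The member median varied between arrays of a group with an SD of 0.321 in log2. The members share the same arrays, so the counts and medians below test no difference between strains. In N2 27 of 44 members had a positive NR estimate (49.9% of all genes), with a median of 0.10. In csb-1 33 had one (48.7%), with a median of 0.335. In csa-1 worms 16 of 44 members had a positive NR estimate, where 51.8% of all genes did, with a median of -0.18, and 0 passed. The median was -0.17 without the array whose label is in doubt, when 1 member passed beside 2.98% of all genes, and ran from -0.28 without csa-1 vehicle replicate 2 to -0.075 without csa-1 NR replicate 1. In the double mutant 37 of 44 were positive, where 50.2% of all genes were, with a median of 0.24. That median was 0.12 without vehicle replicate 1, 0.074 with scaling on the 75th percentile and -0.129 with the normexp correction. In the double mutant ace-2 rose by 2.03 ± 0.59 (limma, adjusted p = 0.0432), from -0.72, -0.59, -1.41 and -0.95 to -0.58, -0.26, -0.31 and -0.35, but it was well above background on only 1 of the 4 vehicle arrays. In csa-1 on NR it was not well above background on any array, where the group mean was -1.17. Synaptojanin, unc-26, had 0.47 ± 0.16 in the double mutant (limma, adjusted p = 0.0957).

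Averaged over the 4 strains, 3 members rose on NR and 0 were called, where 13.3% of all genes passed, 8.5% as higher, and 2.69% were called. These were tdc-1 with 0.40 ± 0.10, snf-11 with 0.49 ± 0.13 and unc-36 with 0.29 ± 0.09 (limma, adjusted p = 0.00559, 0.00944 and 0.0225). The choline transporter cho-1 had 0.50 ± 0.17 (limma, adjusted p = 0.0502). Sperm markers were higher on NR in the same average, with 6 of 9 passing and a median of 0.96, and 5 of 9 body wall muscle markers were lower, with a median of -0.42. Their part in the change of the 3 genes was not tested.

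The response to NR was not shown to differ between strains for any member. Tested as the NR effect in a mutant minus that in N2, 0 members passed in csa-1 (0.0392% of all genes), csb-1 (0.0784%) or the double mutant (0.129%), with 2, 3 and 3 at an unadjusted p of 0.05, beside 8.9%, 7.02% and 6.54% of all genes. The largest by its test statistic were rpm-1 in csa-1 (-0.94 ± 0.41), snb-1 in csb-1 (0.81 ± 0.28) and the dim ace-2 in the double mutant (2.18 ± 0.84). On vehicle, the csa-1 by csb-1 interaction likewise passed for 0 members (0.0196% of all genes), with 5 at an unadjusted p of 0.05 beside 11.6% of all genes, led by ric-3 with 0.96 ± 0.29 and unc-2 with -1.34 ± 0.47.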

How the data were processed

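Total RNA (200 ng labelled) from whole worms was hybridised to 1-colour Agilent arrays of 45220 spots, read with Feature Extraction 11.5.1.1. The authors deposited the scanner output, with processed signal intensity already corrected for background by the scanner software, and a table of scores, which equal Z-scores of the log signal to within 0.005 and served as an alternative. From the deposited intensity, log2 values of the 43803 gene spots were turned into Z-scores within each array, as in the study's methods. Spots of a probe were averaged, 247 probes with outlier marks were left out, and the brightest probe stood for each of 25509 genes. Of these, 19792 were named through a RefSeq gene table matched on systematic names. No coordinates were used.

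Groups were compared with limma 3.58.1 in R 4.3.3 on all 32 arrays, with 1 mean per group and Benjamini-Hochberg adjustment over all genes. The number of arrays limits the precision. The script was tested on simulated data. Alternatives changed the normalization, background correction, probe choice, filter, call rule and arrays. The normexp correction used median signals.

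The members and lists were chosen with earlier results of these data known. Named members are those called in any comparison, the 2 with the largest moderated t in each, and a representative of each role. Members named beyond these, such as unc-47, ric-8 and egl-21, were chosen after their values were seen, as were the comparisons of csa-1 carriers within a treatment and of the double mutant with csb-1. The first version of the level criterion centred Z-scores on the chosen probes and was corrected, after results were seen, to the array Z-score that the design states, which added the call of unc-10 in csb-1 on NR.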

Additional observations from a re-analysis of the deposited data

Results flagged for a closer look

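Among 176 groups of 4 arrays of the named members, 6 held 1 array that stood apart from the other 3, with a gap to the nearest of them above Dixon's 95% critical value. Chance alone gives such a gap in about 5% of groups of this size, and 6 of 176 is no more than that. All 6 stood below their group. In the double mutant on vehicle, replicate 1 stood apart for 3 members. Its Z-score was 0.04 for snt-1, where the others lay at 0.15 to 0.17, -0.07 for tdc-1 (others 0.02 to 0.04) and -0.86 for eat-4 (others -0.55 to -0.51). That array had 65.8% of gene spots well above background, against 71.4% to 75.7% on the other 3 of its group. For unc-25, N2 vehicle replicate 2 read 0.19 against 0.34 to 0.37, on the array with 60.6% well above background. For unc-2, csa-1 vehicle replicate 2 read -0.31 against -0.01 to 0.04. For snf-11, replicate 4 of the double mutant on NR read 0.26 against 0.34 to 0.36. The part of array quality in these values was not tested.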

How the results depend on the processing

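The 10 calls in the comparisons planned at first were followed, and no alternative reversed their direction. Calls in the comparisons added later were not followed. Pooled over alternatives, 109 log2 changes kept their call and 51 lost it with the same direction. The adjusted p alone and the unadjusted p only relax the call rule, so they could not lose any of the 10. The deposited scores, equal to the Z-scores to within 0.005, and either filter on dim probes, which leaves the Z-scores of kept genes unchanged, each kept all 10. These settings do not test the normalization. The normexp correction lost all 10. Scaling on the 75th percentile lost 9, as did Z-scores over spots well above background on all arrays. Quantile normalization lost 8. Counts of members called that moved by over 1.5 times are given here, and the cause was not tested. Smaller moves, from 5 to 4 or 6, are left out. Scaling on the 75th percentile called 1 for csa-1 against N2 on vehicle, 2 for csb-1, 0 for the double mutant, 0 for NR in csb-1, 0 for the average csa-1 effect, 0 for the average csb-1 effect, 0 for the csa-1 effect on vehicle and 2 for the double mutant against csb-1 on NR. The 75th percentile as a covariate called 1 for csa-1 and 2 for csb-1 against N2 on vehicle. Quantile normalization called 0 for the double mutant against N2 on vehicle, 1 for the average csa-1 effect, 0 for the average csb-1 effect, 0 for the csa-1 effect on vehicle, 1 for that on NR and 2 for the double mutant against csb-1 on NR. The normexp correction called 1 for the double mutant against csb-1 on vehicle and 0 for that on NR, for the double mutant against N2 on vehicle, for NR in csb-1, for the average csa-1 and csb-1 effects and for the csa-1 effect on vehicle. It moved the member median to -0.129 for NR in the double mutant and to 0.265 for the csa-1 by csb-1 interaction. The deposited scores called 2 for the double mutant against csb-1 on NR. Either filter on dim probes called 3 for csa-1 against N2 on vehicle, 1 and 3 for the double mutant against csb-1 on vehicle and NR and 1 for the csa-1 effect on NR. The mean of all probes called 1 for NR in csb-1 and 2 for the double mutant against csb-1 on NR.

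The adjusted p alone called 18 for the average csa-1 effect, 17 for that on vehicle, 3 for the average NR effect, 2 for the double mutant against csb-1 on NR and 1 each for csa-1 against N2 on vehicle, csb-1 and the double mutant against N2 on NR, NR in the double mutant and the double mutant against csb-1 on vehicle. An unadjusted p in its place called 2 for csa-1 and 2 for csb-1 against N2 on vehicle, 1 and 2 for the double mutant against csb-1 on vehicle and NR and 1 for the csa-1 effect on NR. Array quality weights called 2 for csb-1 and 0 for the double mutant against N2 on vehicle, 0 for the average csb-1 effect, 1 for the NR effect in csb-1 minus N2 and 1 for the csa-1 effect on NR. A fit of only the groups compared called 0 for csb-1 and 0 for the double mutant against N2 on vehicle, 0 for NR in csb-1, 0 for the csa-1 effect on vehicle, 1 for that on NR and 2 for the double mutant against csb-1 on NR. Chosen after the data were seen, Z-scores over spots well above background on all arrays called 2 for csb-1 and 0 for the double mutant against N2 on vehicle, 1 for NR in csb-1, 0 for the average csa-1 effect, 0 for that on vehicle, 0 for the average csb-1 effect and 2 for the double mutant against csb-1 on NR. Without the doubted csa-1 NR array 1 was called for the csa-1 effect on NR. N2 vehicle replicate 1 had the smallest share of gene spots well above background. Without that array 0 were called for the double mutant against N2 on vehicle, 0 for the average csb-1 effect and 1 and 2 for the double mutant against csb-1 on vehicle and NR. With the slide as a random block 0 were called for the average csb-1 effect.

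Leaving out 1 array at a time gave 0 to 4 called for csa-1, 0 to 3 for csb-1 and 0 for the double mutant against N2 on vehicle, 4 to 7 for the average csa-1 effect, 3 to 5 on vehicle, 0 to 1 on NR, 0 to 1 for the average csb-1 effect, 0 to 2 for NR in csb-1, 0 to 2 for the csa-1 by csb-1 interaction, and 0 to 1 and 0 to 2 for the double mutant against csb-1 on vehicle and NR. Replicate numbers did not pair the arrays. Correlations of same-numbered arrays ran from -0.504 to 0.407 over 112 pairs, and 12 of 32 arrays correlated best with their own number. A replicate block called 1 for csa-1 against N2 on vehicle and 2 for the double mutant against csb-1 on NR. It called the same number as without it in the other comparisons.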
